A study of Sus scrofa with 23 samples.

Results

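KAT8 (ENSSSCG00000007762), TAF4B (ENSSSCG00000003718) and CHD7 (ENSSSCG00000006231) are regulators of chromatin and transcription, and they are 3 of the 25322 genes counted by RNA-seq in porcine backfat. They were selected because earlier analyses of the same counts placed them among the genes that differed between pigs fed without and with cDDGS, the corn residue of ethanol production. The partner gene NDUFS5 (ENSSSCG00000003653), which encodes an accessory subunit of respiratory complex I, was selected from the same contrasts. The differences between group I and the groups fed cDDGS chose these genes, so these differences are described below without a test.

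The 23 pigs were crossbred fatteners (gilts and castrated males), and the subcutaneous fat of the back was sampled from each. There were 7 pigs in group I (-cDDGS+rapeseed oil), of which 4 were females, and 6 in group II (+cDDGS+rapeseed oil), of which 3 were females. In group III (+cDDGS+beef tallow) 2 of 5 pigs were females, and in group IV (+cDDGS+coconut oil) 3 of 5. Group II differed from group I in cDDGS under the same added oil. By the study's feed values, the diet of group II also held more crude fat and linoleic acid and less starch than that of group I. Groups III and IV also differed from group I in the added fat, so that cDDGS and fat cannot be told apart in these 2 contrasts. Ages at sampling and litters are not given in the labels.

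KAT8 is a lysine acetyltransferase of the MYST family that acetylates histone H4 within the MSL and NSL complexes, and acetylated histone H4 marks open, transcribed chromatin. TAF4B is a subunit of TFIID, the complex that recognises core promoters and helps to place RNA polymerase II, and it is a paralogue of the broadly expressed subunit TAF4. CHD7 is an ATP-dependent chromatin remodeller with chromodomains that acts mainly at enhancers and that has been found together with the PBAF remodelling complex. In adipose tissue, chromatin regulators of these classes take part in switching gene programmes during adipocyte differentiation.

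Gene counts per pig summed to 2437172 at the least and 7979426 at the most (median 4717511), and levels are given as CPM, TMM-normalized counts per 1e6 gene counts. KAT8 had between 41 and 131 counts in a pig, TAF4B between 17 and 126, CHD7 between 105 and 480 and NDUFS5 between 100 and 661, so counting error is largest for TAF4B. All 4 genes passed the filter on low counts in every comparison. The adipocyte markers PLIN1, LIPE, PLIN4 and CIDEC were high in all 23 pigs, with summed levels from 1859 to 3531 CPM, whereas the skeletal muscle marker ACTA1 ranged from 0.891 to 1566 CPM. Reads mapped to 1 place but outside annotated genes had a mean share of 56.8 ± 2.53% (SD, n = 7) for group I, 62.5 ± 5.81% (SD, n = 6) for group II, 56.8 ± 4.0% (SD, n = 5) for group III and 63.0 ± 5.05% (SD, n = 5) for group IV.

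KAT8, the histone H4 acetyltransferase, was lowest in the pigs fed without cDDGS. In group I its level ran from 11.7 to 17.4 CPM with a median of 15.6 CPM, and in group II from 18.5 to 27.0 CPM with a median of 22.7 CPM. In group III the 5 pigs had 22.6, 20.0, 20.8, 19.2 and 21.9 CPM, and in group IV they had 25.5, 28.6, 17.6, 26.9 and 15.1 CPM. All 6 pigs of group II and all 5 pigs of group III lay above every pig of group I, and so did 4 of the 5 pigs of group IV. The exception was pig 55 of group IV with 15.1 CPM, a level in the middle of group I. A gene with every pig of group II above every pig of group I was rare, at 0.203% of the 10323 genes tested, and the share for group III was 0.211%. These shares describe the contrast that chose the gene and are no test of it.

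The mean level of KAT8 was 15.0 ± 1.97 CPM (SD, n = 7) for group I, 22.2 ± 3.29 CPM (SD, n = 6) for group II, 20.9 ± 1.36 CPM (SD, n = 5) for group III and 22.8 ± 6.01 CPM (SD, n = 5) for group IV. The log2 fold change against group I was 0.59 ± 0.14 (SE) with group II, 0.47 ± 0.13 (SE) with group III and 0.60 ± 0.17 (SE) with group IV. The pigs of group IV were the most variable and those of group III the least. Within diets (diet means removed), Pearson's r of KAT8 with the share of reads outside genes over 23 pigs was 0.45 (permutation p = 0.0631) and Spearman's rho was 0.51 (permutation p = 0.0235). Adjusted over the 4 genes correlated with that share, these p-values were 0.126 and 0.094 by permutation, so neither passed. With that share as a covariate, the log2 fold change of KAT8 in group IV was 0.32, in group II 0.44 and in group III 0.48.

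TAF4B, the TFIID subunit, had the opposite order and was highest in the pigs fed without cDDGS. In group I its level ran from 17.1 to 23.9 CPM with a median of 21.2 CPM, and in group II from 7.35 to 18.9 CPM with a median of 13.2 CPM. In group III the 5 pigs had 19.1, 12.8, 14.2, 15.4 and 14.5 CPM, and in group IV they had 14.2, 12.4, 9.92, 14.5 and 13.7 CPM. All 5 pigs of group IV lay below every pig of group I, as did 5 of 6 pigs in group II and 4 of 5 in group III. The pigs inside the range of group I were pig 21 of group II with 18.9 CPM and pig 41 of group III with 19.1 CPM. Genes with every pig of group IV below every pig of group I made up 0.472% of the 10388 genes tested.

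The mean level of TAF4B was 21.0 ± 2.30 CPM (SD, n = 7) for group I, 13.1 ± 3.77 CPM (SD, n = 6) for group II, 15.2 ± 2.39 CPM (SD, n = 5) for group III and 13.0 ± 1.88 CPM (SD, n = 5) for group IV. The log2 fold change against group I was -0.64 ± 0.17 (SE) with group II, -0.47 ± 0.14 (SE) with group III and -0.69 ± 0.14 (SE) with group IV. The lowest value, 7.35 CPM in pig 24 of group II, rested on 17 counts. With the share of reads outside genes as a covariate the differences became larger in groups II and IV, with log2 fold changes of -0.82 and -0.84. In group III the value stayed at -0.47. Within diets, TAF4B had r = 0.45 (permutation p = 0.0941) and rho = 0.43 (permutation p = 0.0729) with that share.

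CHD7, the chromodomain remodeller, was lowest in group I and highest in group IV, with a wide overlap between groups. In group I its level ran from 43.8 to 64.2 CPM with a median of 45.7 CPM, and in group II from 45.4 to 81.0 CPM with a median of 65.6 CPM. In group III the 5 pigs had 102.9, 64.5, 53.0, 61.6 and 68.6 CPM, and in group IV they had 77.2, 78.7, 63.5, 90.2 and 95.3 CPM. Above every pig of group I lay 3 of 6 pigs in group II, 3 of 5 in group III and 4 of 5 in group IV. Group I itself was split, with 4 pigs between 43.8 and 45.7 CPM and 3 pigs between 57.6 and 64.2 CPM.

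The mean level of CHD7 was 51.7 ± 9.29 CPM (SD, n = 7) for group I, 65.1 ± 13.7 CPM (SD, n = 6) for group II, 70.1 ± 19.2 CPM (SD, n = 5) for group III and 81.0 ± 12.4 CPM (SD, n = 5) for group IV. The log2 fold change against group I was 0.36 ± 0.15 (SE) with group II, 0.44 ± 0.17 (SE) with group III and 0.65 ± 0.14 (SE) with group IV. The value for group III depended on pig 41, which had the highest level of all 23 pigs, and it was 0.25 without that pig. With the share of reads outside genes as a covariate the log2 fold change was 0.22 in group II and 0.50 in group IV. Within diets, CHD7 had r = 0.41 (permutation p = 0.0833) and rho = 0.32 (permutation p = 0.163) with that share. The part of this share in the diet differences of the 3 genes was not tested beyond these fits.

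**Figure D1:**
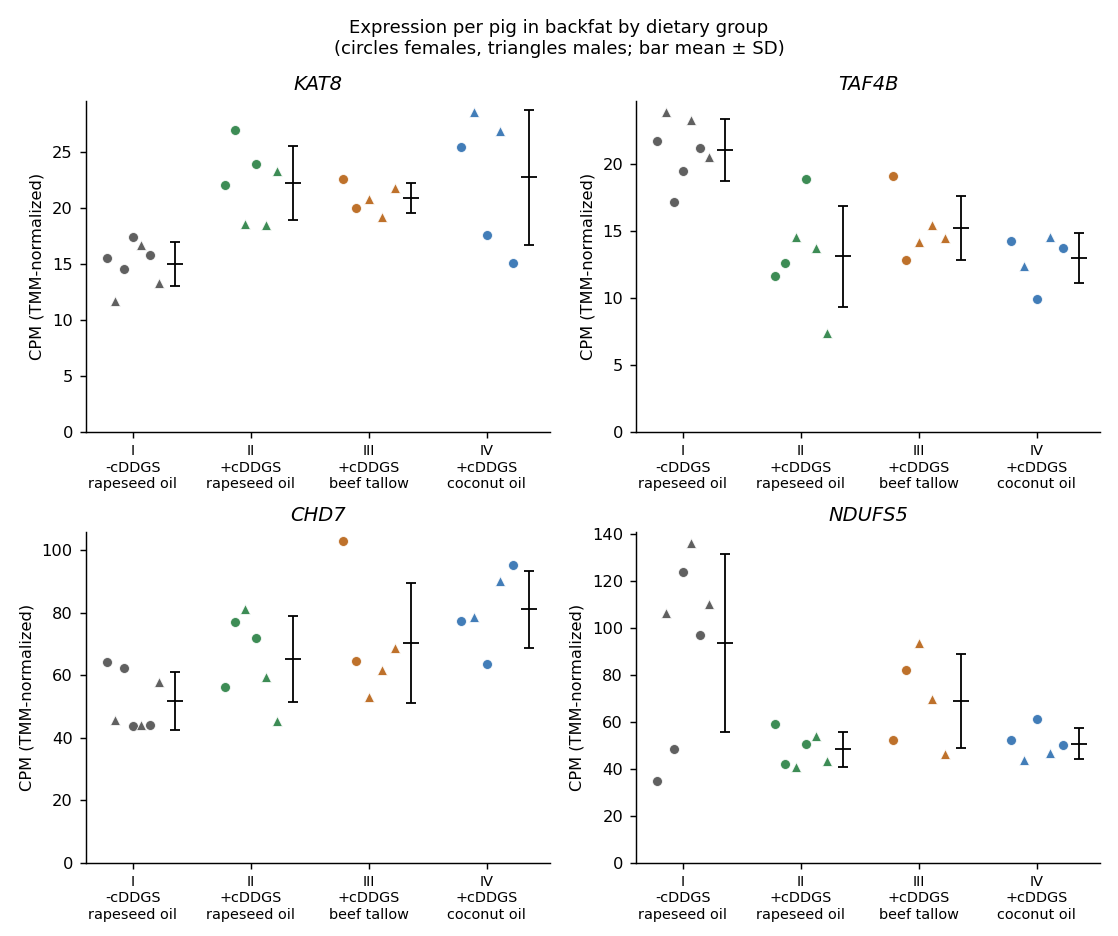
Level of KAT8, TAF4B, CHD7 and NDUFS5 in each of the 23 pigs (vertical axis, TMM-normalized CPM, from 0) by dietary group (horizontal axis), with circles for females, triangles for males and a bar for the mean ± SD. KAT8 lies between 11.7 and 17.4 CPM in group I and between 18.5 and 27.0 CPM in group II, TAF4B has the reverse order, and CHD7 overlaps between groups.

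NDUFS5, the complex I subunit, was higher in most but not all pigs of group I. In group I its level ran from 34.9 to 136.0 CPM with a median of 106.5 CPM, and in group II from 40.9 to 59.1 CPM with a median of 46.8 CPM. In group III the 5 pigs had 52.5, 82.3, 93.8, 69.8 and 46.3 CPM, and in group IV they had 52.2, 43.9, 61.1, 46.6 and 49.9 CPM. Pig 1 of group I, with 34.9 CPM, lay below every pig fed cDDGS, and pig 3 of group I, with 48.3 CPM, lay within their range. The other 5 pigs of group I lay between 96.9 and 136.0 CPM. The log2 fold change of NDUFS5 against group I was -0.93 ± 0.26 (SE) with group II, -0.44 ± 0.29 (SE) with group III and -0.87 ± 0.27 (SE) with group IV. Because these are bulk libraries, fewer cells of a type and less RNA per cell cannot be told apart for any of these genes.

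The 3 groups fed cDDGS differed in their added fat, and the contrasts between them were not used to select the genes, although the same pigs were. None of the 3 genes passed the test of edgeR's quasi-likelihood F-test with Benjamini-Hochberg adjustment over all genes in any of these contrasts. In groups III against II, 0% of the 10410 genes tested were called, meaning a fold change over 1.3 with an adjusted p under 0.05, and the share was also 0% in groups IV against II and IV against III. At an unadjusted p under 0.05, the counts over all genes were 647 (6.22%), 502 (4.99%) and 421 (4.12%), and none of the 3 genes was among them. DESeq2 called 25, 2 and 0 genes in these contrasts and limma-voom called 0 in each.

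For KAT8 the log2 fold change was -0.11 (95% interval -0.41 to 0.19) between groups III and II, 0.01 (-0.39 to 0.41) between groups IV and II and 0.13 (-0.26 to 0.53) between groups IV and III. For TAF4B the values were 0.18 (-0.27 to 0.62), -0.06 (-0.51 to 0.39) and -0.22 (-0.58 to 0.15) in the same order. For CHD7 they were 0.08 (-0.33 to 0.49), 0.29 (-0.06 to 0.63) and 0.22 (-0.17 to 0.61). The intervals of all 3 genes included 0 and also differences as large as 0.41 on the log2 scale in at least 1 direction, so these pigs do not show that the added fats act alike. The neighbouring levels in the order of the cDDGS groups showed no difference beyond their spread for any of the 3 genes.

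Sex was a further contrast that the selection did not use. With dietary group as covariate, the log2 difference male minus female was -0.04 (95% interval -0.26 to 0.19) for KAT8, -0.01 (-0.26 to 0.24) for TAF4B and -0.16 (-0.40 to 0.09) for CHD7, which was -0.06 without pig 41 of group III. The adjusted p-values of edgeR's quasi-likelihood F-test were 0.895, 0.971 and 0.509. Over all genes, 93 of 11039 were called between males and females (0.842%), so sex differences were detectable in this fit. KAT8 ran from 14.5 to 27.0 CPM in females and from 11.7 to 28.6 CPM in males, TAF4B from 9.92 to 21.7 CPM and from 7.35 to 23.9 CPM, and CHD7 from 43.8 to 102.9 CPM and from 44.1 to 90.2 CPM. A difference of the cDDGS effect between the sexes was not detected for any of them, with log2 interaction terms of 0.24 for KAT8, -0.28 for TAF4B and -0.04 for CHD7, none past an adjusted p of 0.05 in edgeR, where 0% of 11039 genes were called.

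The relation of each gene to NDUFS5 was examined across pigs. Over all 23 pigs without regard to diet, Pearson's r with NDUFS5 on the scale of log2(CPM + 0.5) was -0.49 for KAT8 (rho = -0.45), 0.48 for TAF4B (rho = 0.39) and -0.67 for CHD7 (rho = -0.63). Since these 4 genes were selected for their diet differences, such pooled values follow in part from the selection, and no test is given for them. The question that remains is whether pigs on the same diet that had less NDUFS5 also differed in the 3 genes, so diet means were subtracted before the relation was tested.

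CHD7 was inversely related to NDUFS5 among pigs of the same diet. After removal of diet means, r was -0.60 (permutation within diets, 2-sided p = 0.00124) and rho was -0.68 (permutation p = 0.00057). In pigs 1 and 3 of group I, which had the lowest NDUFS5 of their group, CHD7 was 64.2 and 62.2 CPM, the highest values of that group. In pig 41 of group III, CHD7 was 102.9 CPM with NDUFS5 at 52.5 CPM, and in pig 45 of the same group CHD7 was 53.0 CPM with NDUFS5 at 93.8 CPM. Pig 8 of group I went against the relation, with 57.6 CPM of CHD7 and 110.0 CPM of NDUFS5, and so did pig 24 of group II, with 45.4 CPM and 43.2 CPM.

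For KAT8 and TAF4B no relation to NDUFS5 passed the test among all pigs with diet means removed. For KAT8, r was -0.13 (permutation p = 0.50) and rho was -0.15 (permutation p = 0.44). Without pigs 5 and 6 of group I, the 2 pigs farthest from the median of NDUFS5, r of KAT8 was -0.33 (permutation p = 0.054) and rho was -0.39 (permutation p = 0.0476), so its value depended on these pigs. For TAF4B, r was 0.02 (permutation p = 0.895) and rho was -0.11 (permutation p = 0.622). These 3 relations were computed as a family, in which r of CHD7 with all pigs had an adjusted permutation p of 0.00372. The difference between the correlation of CHD7 and those of the other two genes was not tested.

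The relation of CHD7 to NDUFS5 held when single pigs were left out, with r from -0.70 to -0.56 over 23 repeats and a permutation p of at most 0.00489. Without pigs 6 and 5 of group I, the 2 pigs farthest from the median of NDUFS5, r was -0.55 (permutation p = 0.0112). Without pigs 1 and 3 of group I together, r was -0.52 (permutation p = 0.0399). The p-values of these repeats are not adjusted over the 3 genes, and with adjustment the one without pigs 1 and 3 would not pass. With the muscle marker ACTA1 as a covariate r was -0.67 (permutation p = 0.00154), and with the share of reads outside genes as a covariate it was -0.60 (permutation p = 0.00313). With sex as a covariate r was -0.58 (permutation p = 0.00313). With RIN, the RNA integrity number, as a covariate it was -0.61 (permutation p = 0.00108). Within group I alone, r was -0.83 (exact permutation p = 0.0167, n = 7) and rho was -0.68 (exact permutation p = 0.11), and within group II r was -0.34 (exact permutation p = 0.499, n = 6) and rho was -0.66 (exact permutation p = 0.175). Groups III and IV, with 5 pigs each, were not examined alone. Of the 6 relations examined within groups I and II, none had an adjusted p under 0.05, the lowest being 0.1 for CHD7 in group I by exact permutation.

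The relation of CHD7 to NDUFS5 did not pass the test over all genes. In the fit of a slope on NDUFS5 with dietary group as covariate, CHD7 changed by -0.38 ± 0.12 (SE) log2 units per log2 unit of NDUFS5, with an unadjusted p of 0.00376 and an adjusted p of 0.647 in edgeR's quasi-likelihood F-test, and it ranked 60 of 11033 genes by p. In this fit 0% of genes passed the adjusted threshold, 637 had an unadjusted p under 0.05, DESeq2 called 4 genes and limma-voom called 1. The genes with a negative slope at an unadjusted p under 0.05 made up 2.88% of all genes tested. For KAT8 the slope was -0.07 ± 0.13 (SE), with an adjusted p of 0.964, and for TAF4B it was 0.00 ± 0.13 (SE), with an adjusted p of 0.999 in edgeR. By correlation alone, 179 of the 11038 other genes, NDUFS5 included, were at least as negatively related to CHD7 as NDUFS5 was.

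**Figure D2:**
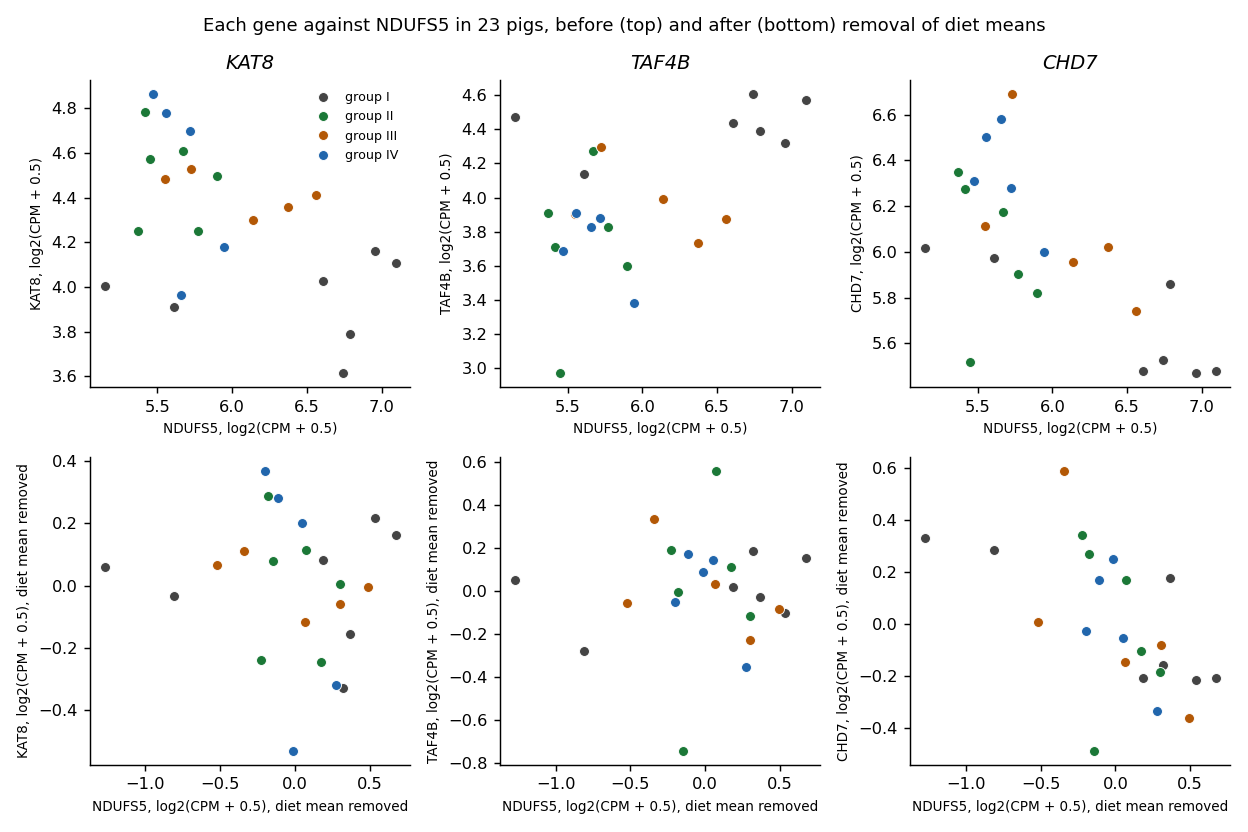
Each of KAT8, TAF4B and CHD7 (vertical axis) against NDUFS5 (horizontal axis) in 23 pigs on the scale of log2(CPM + 0.5), as measured in the upper row and with diet means removed in the lower row; points are pigs, coloured by dietary group. With diet means removed, the points of CHD7 run from upper left to lower right (r = -0.60), and r is -0.13 for KAT8 and 0.02 for TAF4B.

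NDUFS5 is 1 of the nuclear-encoded subunits of complex I, the first enzyme of the respiratory chain, and 17 others were tested. CHD7 was negatively correlated with 17 of these 17 subunits after removal of diet means, with a median r of -0.43. The values ran from -0.63 for NDUFB5 and NDUFB6 to -0.08 for NDUFB7, with NDUFS4 (-0.59) next to the lowest and NDUFB1 (-0.12) and NDUFA2 (-0.20) next to the highest. Over all 11038 other genes the median r with CHD7 was -0.01 and 50.8% of the values were negative, with the 5th percentile at -0.49. These subunits share libraries and vary together, so the 17 values are not independent, and no test was made of them. With dietary group as covariate, 17 of the 18 subunits, NDUFS5 included, had a positive log2 difference male minus female. Their median was 0.24, beside -0.02 over all genes, and none passed the adjusted threshold of edgeR. CHD7 had a negative difference, as given above. The part of sex in the correlations with the 17 subunits was not tested.

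TAF4B was also negatively correlated with most of these subunits but not with NDUFS5 itself. It had a negative r with 16 of the 17 others, with a median of -0.33 and the lowest value at -0.67 for NDUFB9, whereas its r with NDUFS5 was 0.02. For KAT8, 11 of 17 values were negative, with a median of -0.11, from -0.34 for NDUFA10 to 0.29 for NDUFS6. Over all genes, 51.8% of the r with TAF4B and 53.4% of those with KAT8 were negative. Within diets, ACTA1 had r of -0.40 with TAF4B, -0.31 with CHD7 and -0.12 with NDUFS5, and its part in the correlations with the other subunits was not tested.

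**Figure D3:**
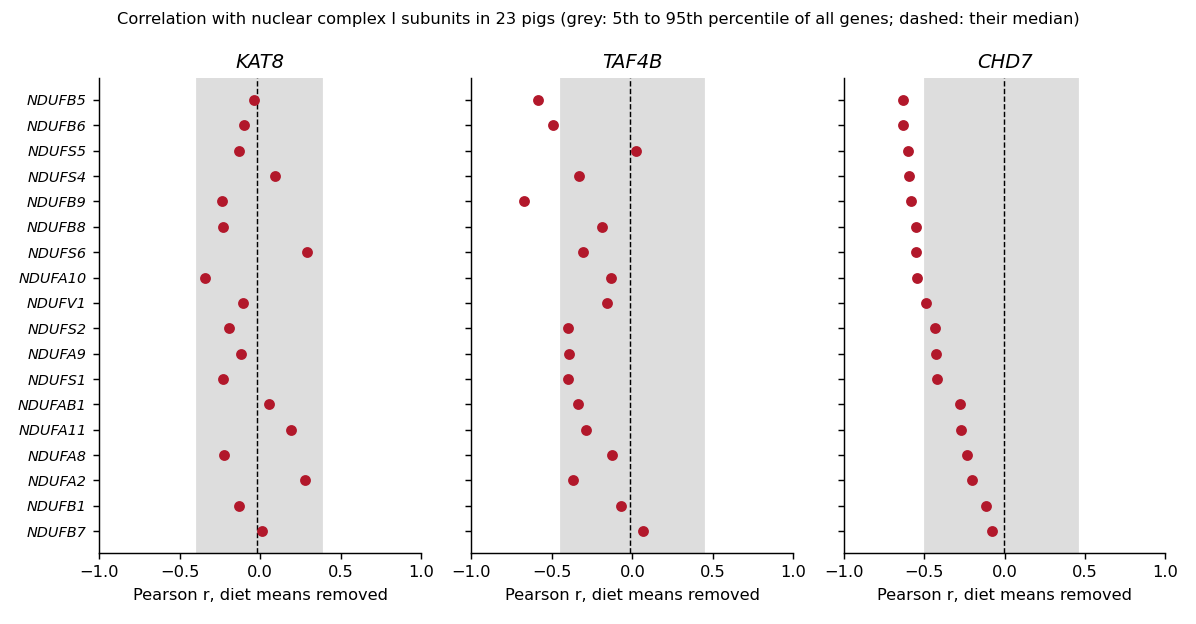
Pearson's r of KAT8, TAF4B and CHD7 (panels) with 18 nuclear-encoded complex I subunits including NDUFS5 (vertical axis) in 23 pigs, with diet means removed (horizontal axis); grey bands span the 5th to the 95th percentile of r over all genes and dashed lines mark the median. For CHD7 all 18 points lie below 0, and 8 of them lie left of the grey band.

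The 3 genes were also compared with each other. After removal of diet means, TAF4B and CHD7 had r = 0.55 (permutation p = 0.0148) and rho = 0.46 (permutation p = 0.0409), and their diet differences ran in opposite directions. With adjustment for the 3 pairs of genes the permutation p was 0.0445 for r and 0.123 for rho, so the rank correlation did not pass. For KAT8 no relation was detected with TAF4B (r = 0.05, permutation p = 0.843) or with CHD7 (r = 0.02, permutation p = 0.921). Pig 24 of group II had the lowest TAF4B of all pigs and the lowest CHD7 of its group, and pig 41 of group III had the highest value of both genes in its group.

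The genes most like each of the 3 across the 23 pigs, by r after removal of diet means among 11039 genes, are given as a description. For KAT8 they were UIMC1 (0.70), the unnamed gene ENSSSCG00000005491 (0.70) and FAM50A (0.70), and the least like was ENSSSCG00000007115 (-0.79). For TAF4B they were ENSSSCG00000007327 (0.80), ENSSSCG00000016810 (0.76) and ZNF202 (0.75), and the least like was GLRX3 (-0.77). For CHD7 they were ENSSSCG00000021298 (0.80), SMAD7 (0.76), which encodes an inhibitor of TGF-beta signalling, and PCNX3 (0.75), and the least like was ENSSSCG00000028678 (-0.86).

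The partners of KAT8 in its complexes had no call in groups II and III. In group II against group I, none of the 2 tested MSL subunits, the 7 tested NSL subunits and the 3 tested MYST acetyltransferases other than KAT8 passed an unadjusted p under 0.05, beside 6.55% of all genes higher and 6.41% lower. In group III against group I none did either, beside 4.07% and 3.9% of all genes. In group IV against group I, beside 8.22% of all genes higher and 5.98% lower, MSL1, the scaffold of the MSL complex, was higher at 0.26 ± 0.10 (SE) on the log2 scale, and MSL2, its ubiquitin ligase, was lower at -0.31 ± 0.13 (SE). KAT6B, another MYST acetyltransferase, was higher at 0.35 ± 0.14 (SE) in that contrast. KAT5, the acetyltransferase of the NuA4 complex, had log2 fold changes of -0.05, 0.23 and 0.03 in groups II, III and IV. No gene of these lists passed the adjusted threshold of edgeR in any of these contrasts, where 0.0291% of all genes were called in group II and 0% in groups III and IV. The counts behind these shares depended on single pigs, since edgeR called 116 genes in group IV against group I without pig 53 (0 with it) and 17 genes in group II against group I without pig 1 (3 with it). Pig 53 had the highest chi-square per degree of freedom of all pairs within groups, 71.0 with pig 49.

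The paralogue of TAF4B did not move against group I past the test. The level of TAF4 was 19.4 ± 3.89 CPM (SD, n = 7) for group I, 20.7 ± 3.41 CPM (SD, n = 6) for group II, 21.3 ± 3.06 CPM (SD, n = 5) for group III and 22.5 ± 5.20 CPM (SD, n = 5) for group IV, with log2 fold changes of 0.11, 0.13 and 0.23 against group I. Of the 9 TFIID subunits tested besides TAF4B, TAF13 was lower in group II at -0.55 ± 0.25 (SE) at an unadjusted p under 0.05, beside 6.41% of all genes, and none passed in group III. In group IV, TAF3, the subunit that reads methylated histone H3, was higher at 0.49 ± 0.17 (SE), and TAF8 was lower at -0.56 ± 0.17 (SE), beside 8.22% of all genes higher and 5.98% lower. The median log2 fold change of the 9 subunits for the combined groups against group I was 0.08, beside 0.01 over all genes.

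Of 7 other CHD genes tested, 3 were higher in group II against group I at an unadjusted p under 0.05, beside 6.55% of all genes, namely CHD2 at 0.25 ± 0.11 (SE), CHD4 at 0.27 ± 0.12 (SE) and CHD8 at 0.19 ± 0.09 (SE). In group IV, CHD2 at 0.38 ± 0.11 (SE), CHD3 at 0.36 ± 0.14 (SE) and CHD4 at 0.30 ± 0.11 (SE) were higher, beside 8.22% of all genes, and in group III none passed (4.07% of all genes). CHD3 and CHD4 are the remodelling subunits of the NuRD complex. The median of the 7 genes for the combined groups against group I was 0.11, beside 0.01 over all genes, 4 of the 7 were positive, and none passed the adjusted threshold. Of the 6 tested subunits of the PBAF complex, the core subunit SMARCC1 was higher in group IV at 0.66 ± 0.24 (SE), beside the same 8.22%, and none passed in groups II and III. Of the 18 complex I subunits tested, NDUFS5 included, 5 were lower and none higher in group II against group I at an unadjusted p under 0.05 (led by NDUFB8, NDUFA10, NDUFS5 and NDUFS1), 2 were lower and 1 higher in group III, and 3 were lower and none higher in group IV, beside 6.41%, 3.9% and 5.98% of all genes lower in groups II, III and IV. NDUFS5, NDUFA10 and NDUFB8 were picked from these samples by the study and are no independent evidence of direction.

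**Figure D4:**
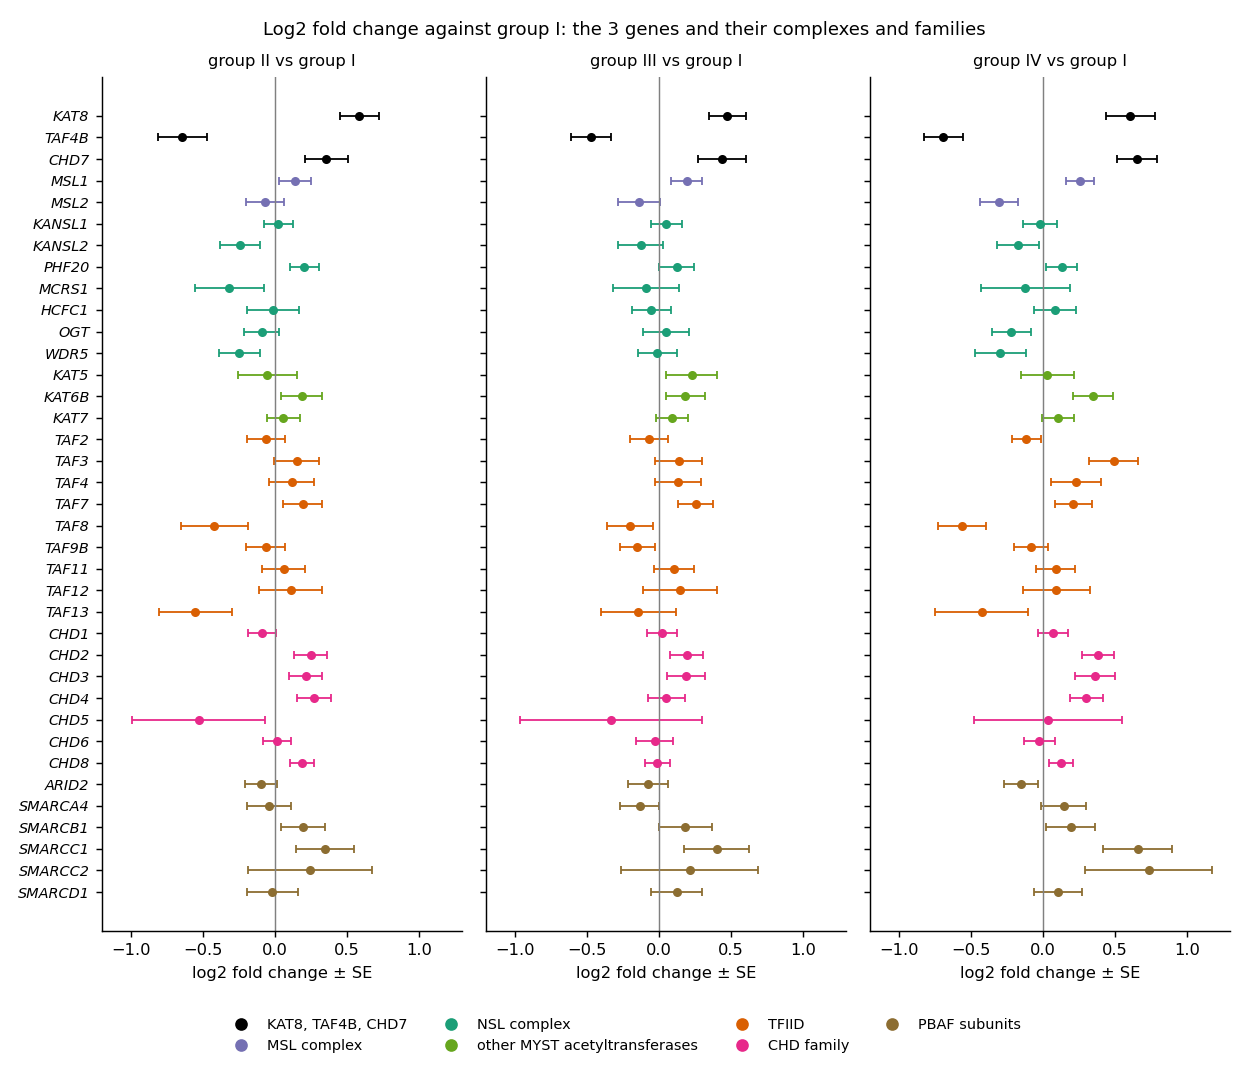
Log2 fold change ± SE from edgeR (horizontal axis) of KAT8, TAF4B and CHD7 and of the tested genes of their complexes and families (vertical axis), in groups II, III and IV against group I (panels); colours mark the lists. KAT8 and CHD7 lie right of 0 and TAF4B left of 0 in all 3 panels, and the genes of the lists lie closer to 0 with the exceptions of TAF8, TAF13, CHD5, SMARCC1 and SMARCC2.

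Marker genes of other cell types were compared with the 3 genes across pigs. The study had reported MRC1, VSIG4 and MS4A2 as higher with cDDGS in these same samples. MRC1 and VSIG4 were in the macrophage list and MS4A2 in the mast cell list, so the group levels of these lists are no independent evidence. The summed level of the macrophage markers was 34.3 to 142.5 CPM in group I and 150.8 to 299.5 CPM in group II. It was 62.0 to 192.7 CPM in group III and 71.1 to 174.7 CPM in group IV. The ranges of groups I and II did not overlap. Among single genes, 0.203% of the 10323 tested had every pig of group II above every pig of group I. The median summed level of the mast cell markers was 81.4 CPM in group I and 149.3, 121.3 and 113.1 CPM in groups II, III and IV, and that of the fibroblast markers was 3369 CPM in group I and 2749, 1835 and 1912 CPM in groups II, III and IV. Within diets, r with the sum of the macrophage markers (6 of 8 listed had an identifier) was -0.06 for KAT8, -0.14 for TAF4B and -0.10 for CHD7. The summed mast cell markers had r of -0.41 with CHD7, the summed endothelial markers 0.44 with CHD7, and the summed adipocyte markers 0.46 with TAF4B. KAT8 had its largest such value, -0.27, with the lymphocyte markers, whose summed level was at most 14.0 CPM. The summed adipocyte markers ran from 2470 to 3531 CPM in group I and from 1859 to 3290 CPM in the groups fed cDDGS together. No marker with an identifier was at 0 in all pigs of a group. The part of cell composition in the diet differences was not tested.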

How the data were processed

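RNA-seq libraries of backfat from 23 pigs were analysed. The study reports that its RNA was degraded, probably through freezer problems, and that a library kit accepting such RNA was chosen. Per the labels and the study's methods, the authors depleted ribosomal RNA, built stranded libraries from total RNA, and passed single-end reads through FLEXBAR (trimming), TopHat (mapping) and HTSeq (counting on Ensembl genes). The authors deposited these counts, whole numbers without normalization, with 25322 gene rows and 5 summary rows per pig that name no gene and were left out (62.6 to 76.7% of the counted reads). How the sequencing replicates of a library were merged and which strand setting was used for counting are not given in the sources used here, so reads of overlapping or antisense genes cannot be told apart. The study states the Sscrofa11.1 assembly with Ensembl annotation 87, but the identifiers look like those of an older annotation, so no coordinates or sequences are given. Symbols of TAF4B, CHD7 and NDUFS5 came from an Ensembl name table. KAT8 was paired with its identifier by the study's own list, and the name table gives that symbol to an identifier that is not among the rows counted.

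Counts were analysed in R 4.3.3 with edgeR 4.0.16 (TMM, filterByExpr, glmQLFit and glmQLFTest, with Benjamini-Hochberg adjustment over all genes tested), using only the pigs of the groups compared, or all 23 pigs with dietary group as covariate for sex and for the slope on NDUFS5. Genes were called DEGs when the fold change exceeded 1.3 with an adjusted p under 0.05. Correlations used log2(CPM + 0.5), with 100000 permutations (within diets once diet means had been removed) or every ordering within a group. Alternatives were DESeq2 1.42.0, limma-voom with quality weights (limma 3.58.1), median-ratio normalization, the most counted gene left out, no filter on low counts, at least 10 counts in every pig, a pseudocount of 2, sex, RIN or the share of reads outside genes as covariate, all 23 pigs in 1 fit and each pig left out. ACTA1 as covariate, the leaving out of pigs 1 and 3 and the interaction of cDDGS with sex were added after the data had been seen.

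The 3 genes and all gene lists were chosen with earlier results of these data known. The genes named were the 3 members, NDUFS5, for each member the 3 genes with the highest and the 1 gene with the lowest r, TAF4 and KAT5, and, of each list, at most 4 genes with an unadjusted p under 0.05 per comparison, and the 3 complex I subunits at each end of r. Lists held subunits of MSL, NSL, TFIID, PBAF and complex I, MYST and CHD genes, and cell type markers. Some listed genes had no identifier here, among them MSL3, KANSL3, KAT6A, TBP, TAF1, CHD9 and 17 of 37 complex I subunits, and were not used. Chi-square per degree of freedom was at least 7.02 for all 56 pairs of pigs that shared a group, so no library was taken for a copy of another. Depth was 2437172 to 7979426 gene counts per pig, and p-values set a difference or correlation against the variation between pigs. In simulated counts for group II against group I (10323 genes, 200 changed by a log2 fold change of 1, 3 runs) edgeR found 64.5% of them, DESeq2 72.3% and limma-voom 62.7%, and 3.97%, 10.1% and 4.08% of the genes called were false. In the same kind of test of a slope on NDUFS5, 200 of 11039 genes were given a slope of 1 (3 runs). Of these, edgeR recovered 75.3%. Recovery at smaller slopes or fold changes, such as those of the 3 genes, was not tested. Figures were drawn with matplotlib 3.10.9.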

Additional observations from a re-analysis of the deposited data

How the results depend on the processing

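The log2 fold changes of KAT8, TAF4B and CHD7 against group I kept their sign under all alternatives run, including those that left out a pig. Of 120 values under alternatives other than leaving out a pig, 119 moved by less than the spread between pigs, and the exception was KAT8 in group IV against group I at 0.32 with the share of reads outside genes as covariate. No tested fold change or slope crossed its adjusted threshold under any alternative. No Pearson's r within diets crossed an unadjusted permutation p of 0.05. With adjustment over the 3 genes, r of CHD7 would not pass without pigs 1 and 3 of group I. The rank correlation of KAT8 with NDUFS5 crossed the unadjusted limit (rho = -0.39, permutation p = 0.0476) without the 2 pigs farthest from the median of NDUFS5. Values close to 0 changed sign without passing a test. For KAT8 these were -0.012 in group IV against II, -0.045 in group IV against III and 0.0026 between the sexes, all with the share of reads outside genes as covariate. For TAF4B these were 0.015 in group IV against II with limma-voom and, between the sexes, 0.014 with DESeq2, 0.048 with limma-voom, 0.020 with RIN and 0.040 with the share of reads outside genes as covariate. The slope of TAF4B on NDUFS5 was 0.00073 with median-ratio normalization, 0.0055 without the most counted gene, 0.0021 without a filter, 0.010 with limma-voom and 0.038 with the share of reads outside genes. Its correlation within diets was -0.0030 without the 2 pigs farthest from the median of NDUFS5, -0.026 with ACTA1 as covariate and -0.15 without pigs 1 and 3. CHD7 in group III against II was -0.0071 with limma-voom. The cause of these changes was not tested.

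Leaving out single pigs gave -0.091 to 0.12 for KAT8 in group IV against II, -0.092 to 0.0036 for KAT8 between the sexes, -0.17 to 0.068 for TAF4B in group IV against II, -0.045 to 0.055 for TAF4B between the sexes, -0.079 to 0.040 for the slope and -0.096 to 0.084 for the correlation of TAF4B with NDUFS5, and -0.11 to 0.16 for CHD7 in group III against II. The pooled correlation of KAT8 with NDUFS5, which was not tested, was -0.68 without pigs 1 and 3.

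Counts of DEGs over all genes depended on the tool and on single pigs. With each pig left out in turn, edgeR called 0 to 17 genes in group II against I (17 without pig 1), 0 to 1 in group III, 0 to 116 in group IV (116 without pig 53), 0 to 43 in the combined groups (43 without pig 1), 0 to 5 in group III against II, 37 to 193 between the sexes and 0 to 2 for the slope. DESeq2 called 95, 12, 135 and 159 genes in groups II, III, IV and the combined groups against group I, where edgeR called 3, 0, 0 and 0 and limma-voom called 51 for the combined groups. DESeq2 called 25 genes in group III against II, 2 in group IV against II, 247 between the sexes (edgeR 93) and 4 for the slope on NDUFS5, where limma-voom called 1. No paired analysis was possible because the pig numbers are not shared between groups. At 17 to 131 counts per pig for TAF4B and KAT8, counting error limits single values, and log2 differences of 0.4 between groups fed cDDGS were within the intervals.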
